A study of Saccharomyces cerevisiae with 24 samples.

Results

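The COS genes of budding yeast (Saccharomyces cerevisiae) form a family of closely related genes at chromosome ends, and the RNA of 10 of them, COS1 to COS10, was followed here through 4 genotypes and 2 growth states. The members are the rows of the deposited expression table that carry these 10 names, out of 7121 rows that name a gene. All 10 were among the 6449 genes that reached 1 TPM in at least 3 libraries and were tested. The family was chosen by the log-phase levels of 2 members, COS2 (high in nam8D) and COS8 (low in mud1D), both seen against WT. Values of nam8D and mud1D against WT in log phase are therefore given as a description with no test, and so is each other value of COS2 or COS8 that rests on the WT log libraries.

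Poly(A) RNA was sequenced in 24 libraries, 3 biological replicates in each of 8 groups. The 4 genotypes were hsh49::Q24P (strain JPY2863, a point mutant of HSH49), nam8D (JPY28H5, a deletion of NAM8), mud1D (JPY28A8, a deletion of MUD1) and WT (JPY10H3), all in the BY background. Each was taken in starvation, at 48 h of culture, and in log phase. The SD medium held 2% glucose, and the supplements were uracil, lysine, leucine and histidine. Hsh49 belongs to the U2 snRNP, and Nam8 and Mud1 to the U1 snRNP, the particles that recognise introns. Each genotype was 1 strain, so genotype and strain cannot be told apart. The study's design text also names tor1 delta cells, which were not analysed here.

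Cos proteins are multi-spanning membrane proteins. They act at endosomes, where they help surface proteins marked for destruction to enter the vesicles that are delivered to the vacuole. Their genes lie close to telomeres, a region where Sir proteins can silence transcription, and at many chromosome ends a Y′ element, a repeat that encodes a helicase-like protein, lies between the gene and the telomere. The family is also named DUP380, and the DUP240 genes are its smaller relatives.

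The values are TPM, a unit of abundance per transcript length that is scaled to a fixed total in each library, so levels of different genes can be set side by side. The TPM of a library summed to between 999639 and 999881 and hold no read numbers, so depth is unknown for every value below. The deleted genes were low where the labels say so: NAM8 stood at 0.119 TPM on average in nam8D starvation against 45.3 TPM in WT starvation, and MUD1 at 3.58 TPM in mud1D starvation against 69.2 TPM in WT starvation. HSH49 was transcribed in its point mutant, and this level does not check the label. WT also differed from the mutants at markers outside the study's design: LEU2 averaged between 0.925 and 215.4 TPM in the mutant groups, against 4482 TPM in starved WT and 5191 TPM in growing WT. URA3 differed as well, with at most 0.191 TPM on average in a mutant group against 8.46 TPM in starved WT and 4.96 TPM in growing WT. In the hsh49::Q24P log libraries LEU2 stood at 465.5, 117.6 and 63.0 TPM. All groups held far more RNA of MFA1, a gene of mating type a, than of MF(ALPHA)1, its counterpart in mating type alpha.

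In the reference genome of release 64 the 10 genes lie at 10 different chromosome ends. COS2, COS5 and COS7 are the outermost protein-coding genes, on the right arm of chromosome II, the right arm of chromosome X and the left arm of chromosome IV. COS1 (left arm of XIV), COS3 (left arm of XIII) and COS6 (right arm of VII) are number 2 from the end. COS8 on the left arm of VIII and COS10 on the right arm of XIV are number 4, COS9 on the left arm of XI is number 5 and COS4 on the left arm of VI is number 6. Of the other genes that carry the name, COS12 is outermost on the left arm of VII, and COS111 is number 100 from the right end of II, away from the telomere. Coordinates are left out, since the sources used here do not name the build behind the table.

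How far the members can be told apart by short reads bears on what each row means, so part of the coding sequence is shown first. The coding sequences of COS2 and COS3, 1140 bases each, are identical in every base. The identity runs on for 1671 bases before the start codon and for 53 bases after the stop codon. A stretch of 75 bases, from base 600 to base 674 counted from the start codon, shows how the others differ, with capitals for bases that differ from COS2.
COS2: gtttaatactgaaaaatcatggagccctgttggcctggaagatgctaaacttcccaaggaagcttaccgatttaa
COS3: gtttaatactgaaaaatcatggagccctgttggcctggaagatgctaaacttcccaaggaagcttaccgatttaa
COS1: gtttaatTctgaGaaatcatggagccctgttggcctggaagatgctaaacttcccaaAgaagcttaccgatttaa
COS7: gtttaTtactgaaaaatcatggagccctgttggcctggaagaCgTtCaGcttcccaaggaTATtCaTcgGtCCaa
COS8: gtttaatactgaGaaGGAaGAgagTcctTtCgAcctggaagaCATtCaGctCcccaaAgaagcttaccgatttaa
In this stretch COS1 differs from COS2 at 3 bases, COS7 at 13 and COS8 at 17. COS4 and COS6 differ at 2 bases and COS5 at 12.

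Over the whole coding sequence COS1 shares 96.6% of bases with COS2 and COS3 and 96.3% with COS4. COS5 and COS7 share 95.6% with each other. COS8 is at most 86.6% identical to another member (COS6), COS9 at most 75.4% and COS10 at most 62.4%. As a measure of what a read can tell, each coding sequence was divided into all its overlapping words of 75 bases and each word was looked up in the whole genome on both strands. For COS2 and COS3, 0% of the words occur once. The share is 40.8% for COS1, 40.2% for COS4, 29.8% for COS5, 44.0% for COS7 and 75.6% for COS6, but 96.8% for COS8 and 100% for COS9 and COS10. With words of 150 bases it reached 64.8% for COS1 and 74.2% for COS4, and stayed at 0% for COS2 and COS3. How the authors divided reads that match several genes is not given in the sources used here. Values of COS2 and COS3 are therefore read together below, and those of COS1, COS4, COS5 and COS7 as uncertain between near copies.

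**Figure D1:**
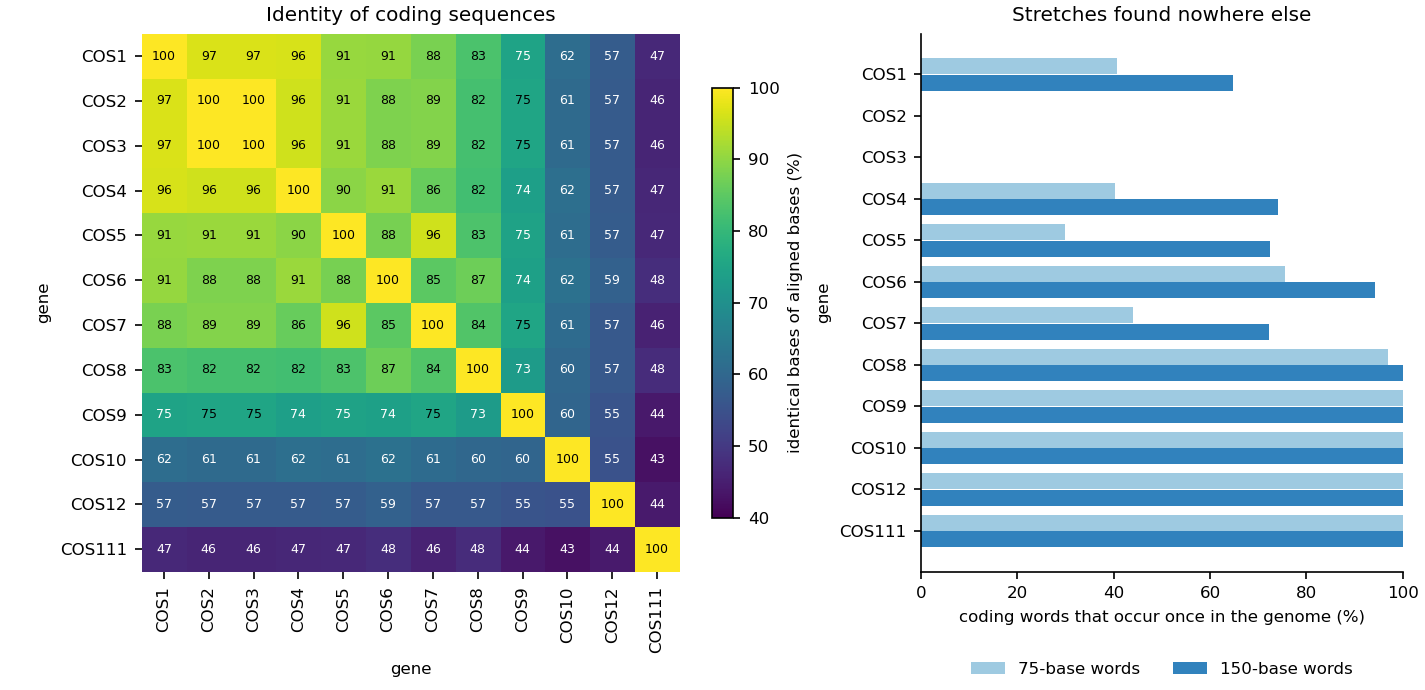
Left, percentage of identical bases between the coding sequences of the 10 members and 2 relatives (colour and number, rounded). Right, bars give the percentage of 75-base (light) and 150-base (dark) words of each coding sequence that occur once in the reference genome; COS2 and COS3 are identical and have none, and COS8, COS9 and COS10 can be told from all others nearly throughout.

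The sequences before the coding region divide the family a little differently, since COS8 falls with the near copies there. Over 250 bases before the start codon COS1, COS5, COS7 and COS8 are 99.2%, 99.2%, 95.2% and 98.4% identical to COS2, and COS4 and COS6 are 91.2% and 90.8% identical. COS9 and COS10 are 44.8% and 44.4% identical, where the median over 5989 protein-coding genes outside the family is 42.8%. COS1 to COS8 thus form a group of near copies here, and COS9 and COS10 do not belong to it. A block next to the start codon holds the letters AGGGG, the core of the stress response element bound by Msn2 and Msn4, on the other strand (read as CCCCT here, in capitals). It is shown because it is the same in all 8 upstream sequences apart from 1 base in COS6.
COS2: tcgaataaaaaaCCCCTcgaactgccatct
COS6: ttgaataaaaaaCCCCTcgaactgccatct
The letters were searched on both strands. They occur in the 250 bases of COS1 to COS8 once each and not in those of COS9, COS10 or COS12. COS111, which does not have this block, also holds them once, on the coding strand and starting 52 bases before its start codon. Among all 6001 protein-coding genes 18.8% hold them in the same window. The 8 copies lie in the same aligned block and are not 8 separate matches, and a match says nothing on whether a factor binds there.

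Together the 10 members held 0.0943% of the TPM of all genes in starved WT and 0.0452% in growing WT. Their summed level was 1109 to 1290 TPM in hsh49::Q24P starvation, 1375 to 1386 TPM in nam8D starvation, 986.3 to 1037 TPM in mud1D starvation and 875.3 to 948.8 TPM in WT starvation. In log phase it was 473.6 to 490.7 TPM in hsh49::Q24P, 489.3 to 504.4 TPM in nam8D, 353.8 to 401.6 TPM in mud1D and 425.2 to 462.2 TPM in WT. All starvation libraries lay above all log libraries, and within starvation the 3 nam8D libraries stood highest and the 3 WT libraries lowest. With spike-in scaling the order of genotypes in starvation changed: the mean was 815.3 in hsh49::Q24P, 935.9 in nam8D, 785.7 in mud1D and 830.8 in WT, in scaled TPM. The growth states were then no longer apart. In hsh49::Q24P starvation replicate 2 lay below every log library of that strain, and replicate 1 stood far above the other starvation libraries of that strain. In RNA from whole cultures, more RNA per cell and more cells that make it cannot be told apart.

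**Figure D2:**
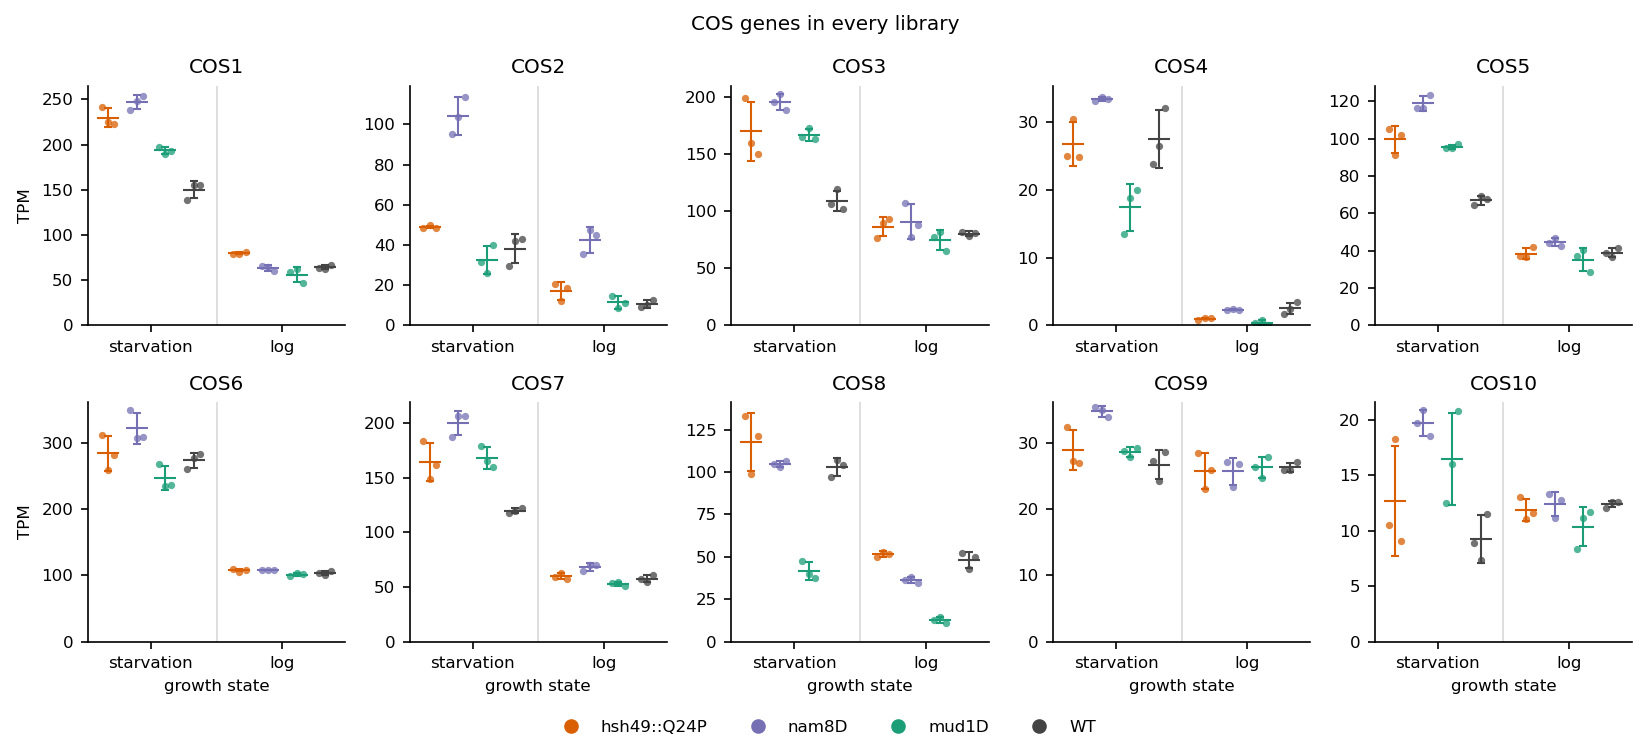
TPM of each COS gene in every library (points), with the mean and SD of 3 replicates (bars), for starvation on the left and log phase on the right of each panel and with hsh49::Q24P, nam8D, mud1D and WT in that order by colour. COS1 to COS8 stand higher in starvation, COS2 stands out in nam8D in both states, COS8 is low in mud1D in both states, and COS9 hardly moves.

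The first comparison asks how the family behaves when cells run out of nutrients. Most of COS1 to COS8 were higher in starvation in every genotype, COS4 by far the most, while COS9 and COS10, the most divergent members, were called in none. In hsh49::Q24P 7 of 10 members were called higher (limma, Benjamini-Hochberg adjusted p under 0.05 and a log2 difference of at least 1), where 28.5% of all tested genes were. COS2 in nam8D and COS8 in mud1D were left untested because their log-phase values there chose them; of the other 9 members 7 were called higher in nam8D (27.4% of all tested genes) and 7 in mud1D (28.2%). In WT, where both were left untested for the same reason, 4 of the other 8 were called higher (26.2%). Not 1 member was called lower in limma, nor was any lower at an unadjusted p under 0.05; the share of all tested genes called lower was 14.1% in hsh49::Q24P, 10.3% in nam8D, 14.9% in mud1D and 9.01% in WT.

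The median of the members tested was higher by 1.37 on the log2 scale in hsh49::Q24P, 1.505 in nam8D, 1.43 in mud1D and 0.91 in WT. Over all tested genes the median was 0.39, 0.43, 0.36 and 0.47 in the same order. The member medians cover 10, 9, 9 and 8 members in that order, so they do not compare like with like between genotypes. The members left out stood at 1.73 (COS2) and 1.09 (COS8) in WT, 1.28 (COS2) in nam8D and 1.63 (COS8) in mud1D. Relative to the median gene, the differences in WT were 2.56 for COS4, 1.26 for COS2, 0.93 for COS6, 0.73 for COS1, 0.62 for COS8, 0.58 for COS7, 0.30 for COS5, -0.04 for COS3, -0.45 for COS9 and -0.88 for COS10. With each library centred on its median gene, the count was 6 in hsh49::Q24P, 5 in both deletion strains and 1 in WT (COS4). The median over all tested genes was then 0.05 in hsh49::Q24P, 0.01 in nam8D, 0.02 in mud1D and -0.007 in WT. The table also lists 92 spike-in RNAs, which the labels do not mention and whose amounts are unknown. If equal amounts are assumed in each library, COS4 alone was called higher in each mutant, COS10 was called lower in hsh49::Q24P, and COS4 and COS6 were called higher in WT. The shares of all tested genes called under median centring or spike-in scaling are not given here, so these counts have no background beside them.

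COS4, a near copy of COS1 at the left end of chromosome VI, was almost silent in growing cells. In hsh49::Q24P it stood at 25.0, 30.4 and 24.7 TPM in starvation and at 0.867, 1.12 and 1.08 TPM in log phase. In nam8D it stood at 33.0, 33.5 and 33.3 TPM in starvation and at 2.35, 2.38 and 2.32 TPM in log phase. The log values of the 3 replicates differed little in these strains, and the groups lie far apart. In mud1D it stood at 13.5, 18.7 and 20.0 TPM in starvation and at 0.439, 0.743 and 0 TPM in log phase. In WT it stood at 23.7, 26.4 and 32.0 TPM in starvation and at 1.72, 2.45 and 3.39 TPM in log phase. No starvation library overlapped a log library in any genotype, and 1 mud1D log library lists the gene at 0. The log2 differences of TPM + 1 were 3.77 ± 0.19 (SE) in hsh49::Q24P, 3.36 ± 0.19 in nam8D, 3.74 ± 0.19 in mud1D and 3.03 ± 0.19 in WT, with limma adjusted p from 1.66e-13 to 9.07e-12. Relative to the median gene they were 3.39, 2.93, 3.38 and 2.56 in the same order. The added 1 TPM makes these values smaller than the ratio of the levels. COS4 was called higher in starvation in all 4 genotypes under each of the scalings, spike-in scaling included.

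COS6, the member with the highest mean level in each of the 8 groups, averaged 283.7 ± 26.1 TPM (SD, n = 3) in hsh49::Q24P starvation and 107.5 ± 1.66 TPM in log phase. In nam8D the values were 321.2 ± 23.6 TPM in starvation and 107.8 ± 0.522 TPM in log phase, in mud1D 246.1 ± 18.3 and 101.1 ± 1.89 TPM, and in WT 273.5 ± 11.3 and 103.2 ± 3.02 TPM. The 4 genotypes were close to each other in log phase, within 99.0 to 108.9 TPM over the 12 libraries. The log2 differences were 1.39 ± 0.07 in hsh49::Q24P, 1.56 ± 0.07 in nam8D, 1.27 ± 0.07 in mud1D and 1.40 ± 0.07 in WT, each called in limma (adjusted p of 4.07e-13 or less).

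COS1 averaged 229.9 ± 10.4 TPM in hsh49::Q24P starvation, 246.8 ± 7.66 TPM in nam8D starvation, 193.6 ± 4.1 TPM in mud1D starvation and 150.1 ± 9.59 TPM in WT starvation. In log phase it averaged 80.0 ± 1.11, 63.5 ± 3.13, 56.3 ± 8.55 and 64.6 ± 2.50 TPM in the same order. Its log2 differences between starvation and log phase ran from 1.20 ± 0.08 in WT to 1.94 ± 0.08 in nam8D, all called in limma. COS7 followed the same pattern, at 164.5 ± 17.6, 200.02 ± 11.1, 167.9 ± 9.77 and 119.8 ± 2.11 TPM in starvation and 59.7 ± 2.76, 68.2 ± 3.34, 52.9 ± 1.98 and 57.6 ± 3.43 TPM in log phase. COS5, its near copy, stood at 99.5 ± 7.24, 118.9 ± 3.93, 95.6 ± 1.15 and 67.0 ± 2.40 TPM in starvation and at 38.5 ± 2.88, 44.6 ± 2.32, 35.2 ± 6.04 and 39.0 ± 2.28 TPM in log phase. For COS1, COS5 and COS7 all 9 mutant starvation libraries lie above the 3 WT starvation libraries, while in log phase the order is mixed. In log phase COS1 in hsh49::Q24P and COS5 and COS7 in nam8D lie above WT with no overlap, COS7 in mud1D lies below it with no overlap, and the other mutant groups overlap WT. COS7 was called in WT with a log2 difference of 1.05 ± 0.07, just over the size asked for. COS5 passed the adjusted threshold in WT (limma adjusted p = 2.06e-07) at 0.77 ± 0.09, under that size.

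COS9 and COS10 stood apart from the rest. COS9 averaged 28.9 ± 3.05 TPM in hsh49::Q24P starvation, 34.7 ± 0.793 TPM in nam8D starvation, 28.6 ± 0.746 TPM in mud1D starvation and 26.7 ± 2.22 TPM in WT starvation. Its means in log phase were 25.8, 25.7, 26.3 and 26.3 TPM in the same order. All its groups overlap with a neighbour in the order of levels except nam8D starvation, whose 3 libraries (33.8 to 35.4 TPM) lie above the other 21. The log2 difference of COS9 between starvation and log phase was 0.42 ± 0.09 in nam8D (limma adjusted p = 1.39e-04), but turned to -0.02 with quantile normalization and to -0.63 with spike-in scaling. In hsh49::Q24P, mud1D and WT the differences of 0.16, 0.12 and 0.02 had limma adjusted p of 0.09, 0.206 and 0.838.

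COS10 had 10.5, 18.3 and 9.10 TPM in hsh49::Q24P starvation and 13.01, 11.04 and 11.6 TPM in hsh49::Q24P log phase. It had 19.7, 20.9 and 18.5 TPM in nam8D starvation and 13.3, 11.1 and 12.7 TPM in nam8D log phase. In mud1D it had 12.5, 16.04 and 20.8 TPM in starvation and 8.32, 11.1 and 11.7 TPM in log phase, and in WT 8.88, 7.33 and 11.5 TPM in starvation and 12.1, 12.6 and 12.6 TPM in log phase. All starvation libraries lie above all log libraries in nam8D and mud1D and below them in WT, and in hsh49::Q24P they overlap. COS10 was higher in starvation in nam8D (0.63 ± 0.20, limma adjusted p = 0.00697) and in mud1D (0.60 ± 0.20, adjusted p = 0.00925), though under the size called and with spike-in scaling at -0.39 and -0.21. In WT its difference of -0.41 ± 0.20 had an adjusted p of 0.0666.

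**Figure D3:**
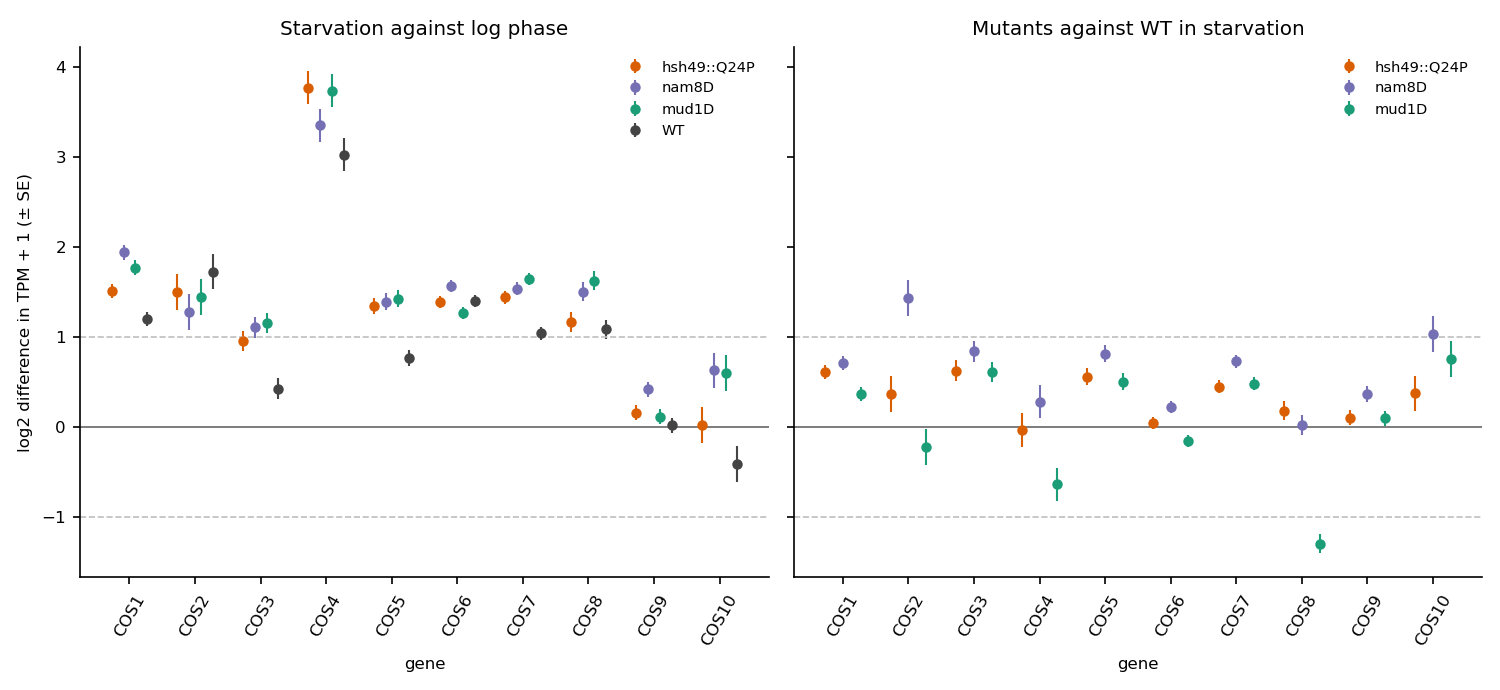
Left, log2 difference of TPM + 1 between starvation and log phase for each member in hsh49::Q24P, nam8D, mud1D and WT. Right, the difference of each mutant from WT in starvation; points are limma estimates with their SE as bars, and dashed lines mark a difference of 1. COS4 leads on the left and COS9 and COS10 stay under the size called in each genotype, while on the right COS2 and COS10 in nam8D lie above 1 and COS8 in mud1D below -1.

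COS2 and COS3 have the same coding sequence, so their rows are given side by side. COS2 had 48.5, 49.8 and 48.6 TPM in hsh49::Q24P starvation, 95.05, 103.4 and 113.8 TPM in nam8D starvation, 31.5, 26.3 and 40.03 TPM in mud1D starvation and 29.7, 41.9 and 42.9 TPM in WT starvation. In log phase it had 20.5, 12.1 and 18.5 TPM in hsh49::Q24P, 35.4, 47.3 and 44.9 TPM in nam8D, 14.8, 8.54 and 11.1 TPM in mud1D and 9.40, 10.05 and 12.8 TPM in WT. The 3 nam8D libraries were the highest in each growth state, and those of log phase reached the level of WT in starvation. COS3 had 199.7, 160.1 and 149.9 TPM in hsh49::Q24P starvation, 195.9, 202.9 and 189.2 TPM in nam8D starvation, 165.1, 173.2 and 163.1 TPM in mud1D starvation and 106.0, 119.3 and 101.7 TPM in WT starvation. Its log-phase values ran from 77.0 to 93.5 TPM in hsh49::Q24P, from 77.4 to 107.3 TPM in nam8D, from 65.1 to 81.7 TPM in mud1D and from 78.2 to 82.3 TPM in WT. For COS3 the log-phase groups overlap, and all mutant starvation libraries lie above those of WT.

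Ordered by mean, COS2 was lowest in WT log phase, then came mud1D and hsh49::Q24P in log phase, mud1D and WT in starvation, nam8D in log phase, hsh49::Q24P in starvation and nam8D in starvation. WT and mud1D overlapped in log phase, as did mud1D and hsh49::Q24P. In starvation mud1D overlapped WT, and WT overlapped nam8D in log phase. COS2 was called higher in starvation in hsh49::Q24P (1.503 ± 0.20) and mud1D (1.44 ± 0.20). Without a test, the difference was 1.28 ± 0.20 in nam8D and 1.73 ± 0.20 in WT. COS3 was called higher in nam8D (1.11 ± 0.11) and mud1D (1.16 ± 0.11). In hsh49::Q24P it passed the adjusted threshold at 0.96 ± 0.11 but stood at -0.15 with spike-in scaling, and in WT it passed at 0.43 ± 0.11 (limma adjusted p = 0.00186) but stood at -0.05 with median centring.

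The sum of both rows does not depend on how reads were shared between them. It averaged 218.9 ± 26.0 TPM in hsh49::Q24P starvation, 300.1 ± 8.06 TPM in nam8D starvation, 199.8 ± 3.26 TPM in mud1D starvation and 147.2 ± 12.9 TPM in WT starvation. In log phase it was 97.5, 101.7 and 112.0 TPM in hsh49::Q24P, 142.7, 124.7 and 133.1 TPM in nam8D, 92.0, 90.3 and 76.2 TPM in mud1D and 91.7, 88.2 and 93.9 TPM in WT. The nam8D sum is thus above WT in both growth states with no overlap. It can still depend on reads shared with COS1 and COS4. The sum of COS1 to COS4 was 562.4 to 589.7 TPM in nam8D starvation and 298.6 to 343.5 TPM in WT starvation. In log phase it was 192.0 to 210.8 TPM in nam8D and 153.3 to 164.7 TPM in WT. As 1 row, the pair was 0.68 higher in starvation than in log phase in WT, also without a test. As 1 row it was also 0.54 higher in nam8D than in WT in log phase, where the COS2 row was 1.89 ± 0.20 higher; neither was tested, and 0.062% of all tested genes were called higher. The share of COS2 in the sum was 34.7 ± 2.57% in nam8D starvation and 25.9 ± 3.89% in WT starvation, and 32.1 ± 6.71% in nam8D log phase against 11.8 ± 1.72% in WT log phase. It was 22.6 ± 2.65% and 16.3 ± 3.26% in hsh49::Q24P and mud1D starvation and 16.5 ± 4.56% and 13.4 ± 3.46% in the same strains in log phase. Within groups, the deviations of COS2 and COS3 from their group means, on the log2 scale over the 24 libraries, had r = -0.32. The same measure was 0.88 for COS1 and COS5, and it was lower still for COS10 with COS8 (-0.63), COS7 (-0.50), COS6 (-0.41) and COS5 (-0.35), so a negative value is not a mark of COS2 and COS3 alone.

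**Figure D4:**
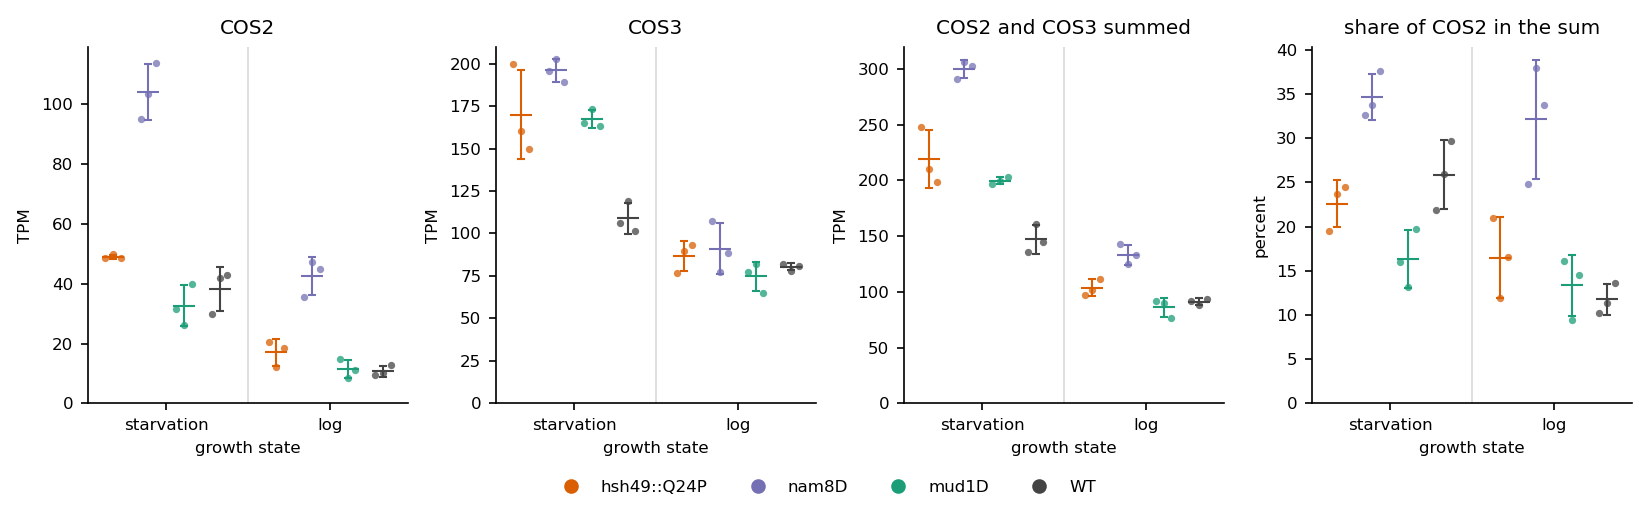
TPM of COS2, COS3 and their sum, and the percentage of the sum that the table gives to COS2, in every library (points) with mean and SD (bars), starvation left and log phase right. The sum in nam8D lies above the other genotypes in each growth state, and the share of COS2 is lowest in mud1D and WT in log phase, at 13.4% and 11.8% on average.

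The differences of mutants from WT in starvation rest on starvation libraries only, not on the log-phase libraries by which COS2 and COS8 were chosen. Their SE and p-values come from the fit of all 24 libraries, which share 1 estimate of the spread. The log-phase libraries therefore do enter the tests in that way. Against WT, nam8D had 2 of 10 members called higher, where 4.39% of all tested genes were higher and 12.2% were called in either direction. COS2 was higher by 1.44 ± 0.20 (limma adjusted p = 4.58e-06), with all 3 nam8D libraries above all 3 WT libraries. As 1 row, COS2 and COS3 were 1.03 higher and the call stood. COS10 was higher by 1.03 ± 0.20 (adjusted p = 1.78e-04), with no overlap, but the call was lost without nam8D starvation replicate 2 (0.99), without WT starvation replicate 2 (0.89), with a pseudocount of 5 (0.80) and with spike-in scaling (0.63). In all 8 members passed the adjusted threshold, each higher in nam8D, where 27.8% of all tested genes did: COS3 by 0.84 ± 0.11, COS5 by 0.82 ± 0.09, COS7 by 0.73 ± 0.07, COS1 by 0.71 ± 0.08, COS9 by 0.37 ± 0.09 and COS6 by 0.23 ± 0.07, beside COS2 and COS10. With spike-in scaling COS6 turned to -0.20 and COS9 to -0.04. COS4 (0.28 ± 0.19) and COS8 (0.02 ± 0.11) did not pass.

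In mud1D 1 member, COS8, was called lower than in WT in starvation, where 8.87% of all tested genes were lower and 13.4% were called in either direction. COS8 had 47.4, 39.6 and 37.8 TPM in mud1D starvation and 97.2, 107.3 and 104.4 TPM in WT starvation. It had 133.0, 99.1 and 121.2 TPM in hsh49::Q24P starvation and 104.8, 103.0 and 106.2 TPM in nam8D starvation. The 3 mud1D libraries are far below the other 9, which overlap. COS8 was 1.29 lower on the log2 scale (-1.29 ± 0.11, limma adjusted p = 5.25e-09), and lay between -1.4996 and -1.19 under each of the alternatives tried. Unlike COS2, COS8 can be told from its relatives over nearly all of its sequence. Below the size called, COS10 (0.76 ± 0.20), COS3 (0.61 ± 0.11), COS5 (0.51 ± 0.09), COS7 (0.48 ± 0.07) and COS1 (0.37 ± 0.08) passed the adjusted threshold as higher (27.6% of all tested genes did), and COS4 (-0.63 ± 0.19, adjusted p = 0.00569) and COS6 (-0.15 ± 0.07, adjusted p = 0.0484) passed as lower, beside COS8 (37% did).

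In log phase COS8 had 12.96, 14.6 and 10.9 TPM in mud1D and 52.0, 42.5 and 49.7 TPM in WT, the contrast that chose it. The other mutants had 49.6, 53.0 and 51.9 TPM (hsh49::Q24P) and 36.2, 38.2 and 34.4 TPM (nam8D). The difference of mud1D from WT was -1.83 ± 0.11 on the log2 scale, given without a test (0.202% of all tested genes were called lower). COS4 was also low in mud1D log phase, at -1.35 ± 0.19 from WT, from levels under 4 TPM. The level of COS8 in starved mud1D cells overlaps that of growing nam8D and WT cells, and between growth states it was 1.63 ± 0.11 higher in starvation in mud1D, against 1.09 ± 0.11 in WT, both without a test.

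In hsh49::Q24P not 1 member was called against WT in starvation, where 11.4% of all tested genes were, but 4 passed the adjusted threshold in limma as higher, where 25.1% of all tested genes did, and 4 had an unadjusted p under 0.05. These were COS3 (0.63 ± 0.11), COS1 (0.61 ± 0.08), COS5 (0.56 ± 0.09) and COS7 (0.45 ± 0.07), all higher in the mutant. COS1, COS3, COS5 and COS7 therefore passed as higher in starvation in all 3 mutants. The 3 comparisons share the WT libraries, so they are not separate observations. With spike-in scaling COS1, COS3, COS5 and COS7 no longer passed in any of the 3. In log phase not 1 member was called in hsh49::Q24P against WT (0.109% of all tested genes were), and none passed the adjusted threshold. An unadjusted p under 0.05 in limma was reached by 2 of the 8 tested. The share of all tested genes that reached it is not given here, so this count has no background beside it. The 2 members were COS4 (-0.77 ± 0.19) and COS1 (0.30 ± 0.08), and COS2, without a test, stood at 0.60 ± 0.20.

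The response of hsh49::Q24P to starvation was compared with that of WT by a test for the 8 members other than COS2 and COS8. Not 1 member was called, where 11.2% of all tested genes were. The adjusted threshold in limma was passed by 5 of the 8, all with the larger response in hsh49::Q24P, the same number as at an unadjusted p under 0.05. Of all tested genes 46% passed it in either direction and 18% with the larger response in hsh49::Q24P. The response was larger in hsh49::Q24P for COS4 by 0.74 ± 0.26 (adjusted p = 0.0265), COS5 by 0.58 ± 0.13 (0.00118), COS3 by 0.53 ± 0.16 (0.0118), COS7 by 0.40 ± 0.10 (0.00353) and COS1 by 0.31 ± 0.11 (0.0322), where the median over all tested genes was -0.11. With spike-in scaling COS1, COS3, COS5 and COS7 turned to -0.51, -0.29, -0.22 and -0.41, and the median gene stood at -0.86, against -0.11 without that scaling. Without replicates 1 and 2 of hsh49::Q24P log phase, which held most LEU2 RNA, COS5 (0.46) and COS7 (0.45) still passed and COS1, COS3 and COS4 did not. That group is then 1 library, assumed to vary like the other groups. For nam8D and mud1D the same differences are a description: COS10 stood at 1.04 ± 0.28 and 1.01 ± 0.28, COS1 at 0.74 ± 0.11 and 0.57 ± 0.11, and COS3 at 0.68 ± 0.16 and 0.73 ± 0.16.

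Between mutants in starvation the members called were COS2 and COS8, and others passed the adjusted threshold below that size. In hsh49::Q24P against nam8D COS2 was the 1 member called (-1.07 ± 0.20, limma adjusted p = 0.0011), where 0.186% of all tested genes were called lower. As 1 row with COS3 it was at -0.46 and not called. In all 5 of 10 members passed the adjusted threshold as lower in that comparison, where 16% of all tested genes did. In hsh49::Q24P against mud1D COS8 was the 1 member called (1.48 ± 0.11, limma adjusted p = 3.38e-08), where 0.217% of all tested genes were called higher. Of the 14 genes called higher there, 9 belong to the list of other genes at chromosome ends given below, so the call is not particular to COS8. No other member passed the adjusted threshold (0.403% of all tested genes passed as higher). In nam8D against mud1D COS2 (1.66 ± 0.20, adjusted p = 3.1e-05) and COS8 (1.32 ± 0.11, adjusted p = 2.44e-07) were called higher, where 0.388% of all tested genes were. There 8 of 10 members passed the adjusted threshold as higher, COS4 at 0.92 ± 0.19 (adjusted p = 0.00172) among them, where 15.1% of all tested genes did. As 1 row with COS3 the COS2 difference was 0.58 and not called.

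Among all tested genes outside the family, 3 were taken for COS2 and 3 for COS8 by the highest Pearson r of log2(TPM + 1) over the 24 libraries. The libraries fall into log phase and starvation, so most of each r comes from that difference. For COS8 these were YHL050C (r = 0.93), YJL225C (0.93) and YFL066C (0.92). YHL050C, an uncharacterized gene that may encode a Cdc28 substrate, is the outermost protein-coding gene of the same chromosome arm, and YJL225C and YFL066C are annotated as Y′ element helicase genes at other ends. YHL050C had 47.6, 38.5 and 29.4 TPM in mud1D starvation against 87.8, 79.4 and 78.9 TPM in WT starvation, and 8.71, 11.1 and 11.1 TPM in mud1D log phase against 24.2, 24.6 and 21.6 TPM in WT log phase. YJL225C averaged 17.4 TPM in mud1D starvation against 30.8 TPM in WT starvation, and 6.89 TPM in mud1D log phase against 12.5 TPM in WT log phase. YFL066C averaged 11.5 against 30.4 TPM in starvation and 2.73 against 8.61 TPM in log phase, mud1D before WT. All 3 were low in mud1D in both growth states. Since they were picked by likeness to COS8 over libraries that include mud1D, this is part of how they were found and no separate observation. Y′ copies share sequence, so the copy is uncertain.

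**Figure D5:**
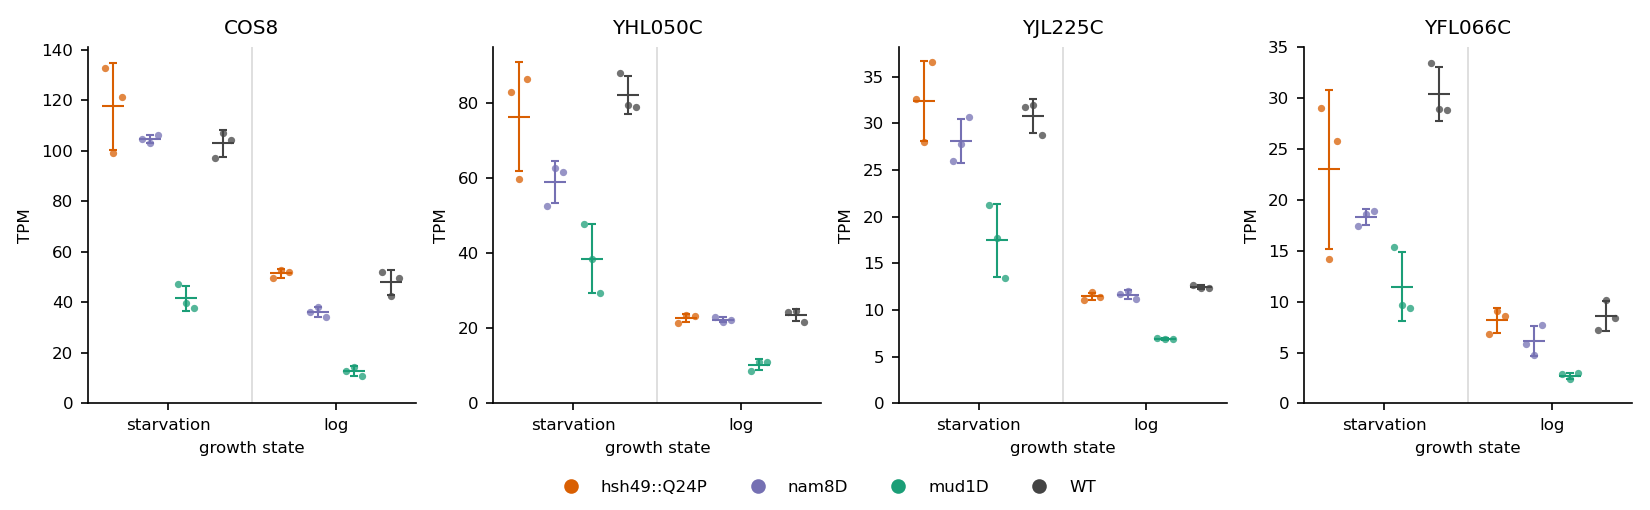
TPM of COS8 and of the 3 genes whose levels are most like it, in every library (points) with mean and SD (bars), starvation left and log phase right. In each panel the mud1D libraries are lowest within log phase, and in starvation their mean (41.6 TPM for COS8) is the lowest of the 4 genotypes.

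Other genes near COS8 were also read. YHL049C, between YHL050C and COS8, had at most 0.728 TPM in any library. YHL048C-A, directly beside COS8, averaged 0.398 TPM in mud1D starvation, 1.97 TPM in hsh49::Q24P starvation, 1.33 TPM in nam8D starvation and 3.93 TPM in WT starvation, and at most 0.124 TPM in the log groups. It was thus lowest in mud1D among the starvation groups. PXP3, number 3 on the inner side, averaged 0.96 TPM in mud1D starvation against 3.05 TPM in WT starvation, with hsh49::Q24P at 0.973 TPM. ARN2, a transporter of iron chelates and the next gene on the inner side, averaged 17.8 TPM in mud1D starvation against 30.9 TPM in WT starvation, while its log libraries held 124.8, 47.0 and 61.3 TPM in mud1D and 112.1, 31.1 and 32.6 TPM in WT, with replicate 1 high in both strains. DFP4, a few genes further in, averaged 23.6 against 29.3 TPM in starvation and 10.1 against 8.85 TPM in log phase, mud1D before WT. The remaining genes on the inner side stood the other way in starvation: PAU13 averaged 5.45 TPM in mud1D against 2.07 TPM in WT, and ECM34 averaged 1.58 TPM in mud1D against 0.605 TPM in WT. These genes stood above starved WT in the other mutants as well. PAU13 averaged 5.53 TPM in hsh49::Q24P starvation and 8.06 TPM in nam8D starvation, and ECM34 averaged 1.21 and 1.18 TPM in the same order. ARN2 (25.9 TPM in hsh49::Q24P and 22.6 TPM in nam8D) and PXP3 (1.26 TPM in nam8D) likewise stood below starved WT in the other starved mutants. The genes around COS8 thus do not share 1 direction in starved mud1D cells against WT, and several of these differences are not particular to mud1D.

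For COS2 the genes of most like pattern were YML133C (r = 0.89), PHM8 (0.85) and RCR1 (0.85). YML133C, annotated as a Y′ element helicase gene, is the outermost gene of the arm that holds COS3. It averaged 13.03 TPM in nam8D starvation against 7.34 TPM in WT starvation, and 6.97 TPM in nam8D log phase against 3.28 TPM in WT log phase. PHM8, a phosphatase induced by low phosphate, averaged 374.0 against 260.1 TPM in starvation and 182.1 against 142.1 TPM in log phase, nam8D before WT. RCR1, a ubiquitin ligase adaptor of the plasma membrane, averaged 298.7 against 243.9 TPM in starvation and 195.5 against 180.8 TPM in log phase, nam8D before WT. These genes were picked by likeness to COS2 over libraries that include the nam8D and WT log libraries that chose it. A higher level in nam8D is thus part of how they were found and no separate observation. PHM8 in hsh49::Q24P log phase, at 183.9 TPM, was level with nam8D log phase. PAU24, the gene next to COS2, had at most 5.33 TPM in any library. YBR298C-A had at most 0.580 TPM, and the MAL genes of maltose use lie on either side of it. In starvation MAL33 averaged 143.5 TPM in hsh49::Q24P, 134.4 TPM in nam8D and 136.3 TPM in mud1D, against 72.7 TPM in WT. MAL31 averaged 206.5, 202.6 and 219.3 TPM in the mutants in the same order, against 133.4 TPM in WT, and MAL32 averaged 11.9, 11.6 and 10.7 TPM against 6.72 TPM in WT. All 3 were thus higher in every starved mutant than in starved WT, with no overlap between libraries, whereas COS2 was highest in nam8D.

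COS12 and COS111 carry the family name but are at most 58.6% and 47.9% identical to a member. COS12 averaged 0.104 TPM in mud1D starvation, 0.345 TPM in nam8D starvation, 0.679 TPM in hsh49::Q24P starvation and 1.26 TPM in WT starvation. It was called lower in mud1D than in WT in starvation (-1.04 ± 0.16, limma adjusted p = 1.5e-05), from levels near the lowest tested. COS111, which lies away from the chromosome end, was called higher in starvation in WT (1.25 ± 0.20) at 60.6 ± 3.12 TPM against 24.9 ± 2.00 TPM in log phase. In the mutants it passed the adjusted threshold under the size called, with hsh49::Q24P at 0.91 ± 0.20, nam8D at 0.57 ± 0.20 and mud1D at 0.85 ± 0.20.

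The wider set of genes at chromosome ends, the 10 outermost protein-coding genes of each end without the members, gives the surroundings of the family. Of 265 tested, 111 were called higher and 26 lower in starvation in hsh49::Q24P, 106 and 23 in nam8D, 114 and 27 in mud1D and 115 and 20 in WT. Of all tested genes 28.5%, 27.4%, 28.2% and 26.2% were called higher in the same order, and 14.1%, 10.3%, 14.9% and 9.01% lower. The differences had list medians of 0.78, 0.68, 0.69 and 0.87 on the log2 scale. Against WT in starvation 23 of 265 were called higher and 24 lower in hsh49::Q24P, where 3.94% and 7.41% of all tested genes were. In nam8D these were 23 higher and 35 lower, where 4.39% and 7.86% of all tested genes were. In mud1D these were 30 higher and 45 lower, where 4.57% and 8.87% of all tested genes were, with a list median of -0.21 where all tested genes had -0.10. Between starved mutants 9 of 265 were called higher and 0 lower in hsh49::Q24P against mud1D (0.217% of all tested genes higher). In nam8D against mud1D 4 were called higher and 2 lower (0.388% higher). In hsh49::Q24P against nam8D 9 were called higher and 2 lower (0.186% lower). The 10 DUP240 relatives moved both ways in starvation, with 3 called higher and 2 lower in each mutant and 2 called higher and 2 lower in WT. With 10 genes the higher counts lie near the shares of all tested genes (28.5%, 27.4%, 28.2% and 26.2%). Their medians against WT in starvation were 0.03 for hsh49::Q24P, 0.12 for nam8D and -0.16 for mud1D. YCR007C, of unknown function, was 2.14 ± 0.11 higher in WT starvation and PRM9, a pheromone-regulated membrane protein, was 2.27 lower (-2.27 ± 0.12).

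The machinery of endosomal sorting, in which Cos proteins act, was taken as a list of 20 genes, all tested. In starvation 6 were called higher and 2 lower in hsh49::Q24P, 2 and 2 in nam8D, and 3 and 2 in mud1D, while 2 were called higher in WT, with list medians of 0.47, 0.32, 0.46 and 0.63. Of all tested genes 28.5%, 27.4%, 28.2% and 26.2% were called higher in the same order, so the counts in nam8D, mud1D and WT are under those shares. The shares of all tested genes called lower were 14.1%, 10.3%, 14.9% and 9.01%, and no lower count stands above its share. HSE1, which binds ubiquitinated cargo in the ESCRT-0 complex, rose by 1.31 ± 0.05 in hsh49::Q24P, and the deubiquitinase gene DOA4 by 1.21 ± 0.20 in WT. STP22, a subunit of the ESCRT-I complex, was called lower in starvation in hsh49::Q24P (-1.29 ± 0.12) and mud1D (-1.39 ± 0.12). VPS25, a subunit of the ESCRT-II complex, was called lower in starvation in nam8D (-1.17 ± 0.12). It was also called lower than in WT in all 3 starved mutants, which share the WT libraries, with hsh49::Q24P at -1.17 ± 0.12, nam8D at -1.31 ± 0.12 and mud1D at -1.29 ± 0.12.

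Of 25 genes of telomeric silencing 24 were tested. In starvation 7 were called higher and 2 lower in hsh49::Q24P, 9 and 1 in nam8D, and 7 and 1 in mud1D, while 5 were called higher in WT. Of all tested genes 28.5%, 27.4%, 28.2% and 26.2% were called higher in the same order, and 14.1%, 10.3%, 14.9% and 9.01% lower. Beside these shares the counts show nothing particular to the list. SIR1, which helps to establish silencing at the mating-type loci, was 2.14 ± 0.07 higher in WT starvation, and ESC1, which anchors silent chromatin at the nuclear envelope, was 1.42 ± 0.08 higher. Against WT in starvation 1 was called higher and 3 lower in hsh49::Q24P, and 2 were called lower in nam8D and 3 in mud1D. Of all tested genes 3.94% were called higher and 7.41% lower in hsh49::Q24P. The shares called lower were 7.86% in nam8D and 8.87% in mud1D. SAS5, a subunit of the SAS histone acetyltransferase that limits the spread of silencing, averaged 485.8 TPM in hsh49::Q24P starvation against 101.2 TPM in WT starvation (2.25 ± 0.07, limma adjusted p = 5.43e-15), and 173.9 TPM in hsh49::Q24P log phase against 43.9 TPM in WT log phase (1.96 ± 0.07, adjusted p = 1.73e-13). Its part in the COS values was not tested.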

How the data were processed

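RNA of 24 libraries was analysed from 1 table of TPM as deposited by the authors; FastQC 0.11.9, Trimmomatic 0.39 and STAR 2.7.9a are named in the submitters' processing notes. The sources used here do not give the build, the annotation, which strand was counted, or how reads matching more than 1 gene were handled. The labels' protocols name a directional kit. Of 8009 lines with values 7121 name a gene; 4 empty lines, spike-in RNAs, origins, repeats and spacers were not tested. Without counts the depth is unknown and no counting interval is given.

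The scale was log2(TPM + 1). In R 4.3.3, limma 3.58.1 fitted 1 model of 8 group means with an intensity trend, 16 residual degrees of freedom and 19.4 in all. Fold changes are on that scale and understate those of low genes. P-values were adjusted by Benjamini-Hochberg over the 6449 genes tested in each comparison (at least 1 TPM in at least 3 libraries). Called means an adjusted p under 0.05 and a log2 difference of at least 1. The fit was tested on simulated data.

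Members, relatives and lists were chosen with earlier results of these data known; the named genes are the members, COS12, COS111, up to 2 called genes of each list with the largest change, neighbours of COS2 and COS8 within 5 genes, and the 3 genes of most like pattern. Sequences, gene order and roles come from release 64 of the yeast reference at RefSeq. In it 6050 identifiers matched, and sequences were read with Biopython 1.88. Identities of coding sequences are from 1 multiple alignment by MAFFT of the members, COS12 and COS111. They were counted over positions where both genes of a pair have a base. Identities of upstream sequences are from pairwise global alignments with COS2. Python 3.11.15 with pandas 2.3.3, numpy 2.4.6 and matplotlib 3.10.9 made the tables and plots. The alternatives were other pseudocounts (0.1 and 5), no filter or 10 TPM, median centring, quantile, trimmed mean and spike-in scaling, a replicate block, no trend, a fit of only the groups compared, and each library left out in turn. With the data in view, 2 alternatives were added: COS2 and COS3 as 1 row, and leaving out hsh49::Q24P log replicates 1 and 2, which were highest in LEU2, together. Replicate numbers were checked for pairing: the deviations of same-numbered libraries from their group means correlated above 0.1 for every number only in hsh49::Q24P against nam8D starvation (0.14 to 0.20), by numbers that come from the labels. The values given for that comparison are without the block. COS2 was left untested wherever WT or nam8D log libraries are in the groups compared, and COS8 wherever WT or mud1D log libraries are. This is wider than first planned, and all 24 libraries still share the estimate of the spread.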

Additional observations from a re-analysis of the deposited data

Results flagged for a closer look

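For 5 members the response to starvation differed between hsh49::Q24P and WT by limma's interaction term (Benjamini-Hochberg adjusted p under 0.05), as it did for 46% of all tested genes (18% with the larger response in hsh49::Q24P). The response of hsh49::Q24P was larger than that of WT by 0.31 for COS1, 0.53 for COS3, 0.74 for COS4, 0.58 for COS5 and 0.40 for COS7 on the log2 scale, and all 5 are under the size called. In COS4 the difference no longer passed without hsh49::Q24P log replicate 1 (0.69), WT log replicate 3 (0.57), hsh49::Q24P starvation replicate 2 (0.65) or WT starvation replicate 1 (0.65), and it stood at 1.15 with a pseudocount of 0.1, 0.29 with a pseudocount of 5 and 0.14 with spike-in scaling, not passing in any of these. In COS1 it no longer passed without any 1 of 5 libraries.

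COS10 moved in opposite directions: its 3 starvation libraries lie above its 3 log libraries in nam8D and in mud1D and below them in WT. The response of nam8D exceeded that of WT by 1.04 and that of mud1D exceeded it by 1.01. These 2 differences were not tested. With spike-in scaling the starvation difference of COS10 was -0.39 in nam8D and -0.21 in mud1D.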

How the results depend on the processing

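Counts of members called higher in starvation depended on the scaling, and the cause was not tested. The shares of all tested genes called under the other settings are not given here, so the counts below have no background beside them. In hsh49::Q24P (7) they were 3 with quantile normalization and 2 with spike-in scaling, 1 of these lower; in nam8D and mud1D (7 each) 1 with spike-in scaling; and in WT (4 of 8) 1 with median centring and with trimmed mean scaling, and 2 with quantile normalization and with spike-in scaling. Spike-in scaling set the median gene at -0.63 in hsh49::Q24P, -0.54 in nam8D, -0.42 in mud1D and 0.20 in WT. In nam8D against WT in starvation 1 member was called with a pseudocount of 5 and with spike-in scaling. In mud1D against WT quantile normalization gave 2, COS10 beside COS8. For the hsh49::Q24P response against WT, quantile normalization gave 1 (COS4, higher). COS2 and COS3 as 1 row gave 0 in hsh49::Q24P against nam8D and 1 in nam8D against mud1D. Directions that turned: COS3 in WT starvation against log at -0.048 with median centring and -0.051 with trimmed mean scaling, in hsh49::Q24P at -0.15 with spike-in scaling; COS9 in nam8D at -0.017 (quantile), -0.0029 (trimmed mean) and -0.63 (spike-in); COS10 in nam8D at -0.39 and in mud1D at -0.21 (spike-in); against WT in starved nam8D, COS6 at -0.20 and COS9 at -0.044 (spike-in); and in the hsh49::Q24P response against WT COS1 at -0.51, COS3 at -0.29, COS5 at -0.22 and COS7 at -0.41 (spike-in). Left-out libraries gave 7 to 8 members in hsh49::Q24P starvation, 2 to 3 in nam8D against mud1D, 1 to 2 in nam8D against WT starvation, and the reported count in the other comparisons. A replicate block changed no count of members called (7 in each mutant and 4 in WT between growth states, and 2, 1 and 0 in nam8D, mud1D and hsh49::Q24P against WT in starvation). In hsh49::Q24P against nam8D starvation COS5 (-0.26) no longer passed the adjusted threshold under the block. The mean summed level of the family with spike-in scaling was 785.7 to 935.9 in the starvation groups and 494.6 to 703.3 in the log groups, in scaled TPM. WT was then not the lowest starvation group, and the starvation and log libraries of hsh49::Q24P overlapped. Reads shared between near copies, an unknown depth, 1 strain per genotype and WT cells with another LEU2 and URA3 state limit what the values show.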
